A study of Mus musculus with 18 samples.

Results

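Ribosomal protein genes were examined in cultured mouse leukaemia cells that carry Cas9, MLL-AF9 and guide RNAs against Jmjd1c. Members were rows of the expression table named as cytosolic ribosomal proteins (Rpl or Rps with a number, Rplp0 to Rplp2 and Rpsa) or mitochondrial ones (Mrpl or Mrps with a number), without pseudogene names and with a mean of at least 1 FPKM (fragments per kilobase of transcript, scaled to library size) over 18 libraries. Of 23899 genes, 165 names matched and 161 were members: 83 cytosolic (49 of the large and 34 of the small subunit) and 78 mitochondrial (49 large, 29 small). The 4 names left out were cytosolic, with means of 0.003 FPKM for Rpl10l, 0.053 for Rps4l, 0.157 for Rpl32l and 0.409 for Rpl3l; the member just inside the minimum was Rpl6l at 1.1 FPKM. Measured values did not otherwise enter the rule, and no threshold was set on the difference between groups. The rule was set with earlier results of these data known.

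Cells were taken from a primary mouse leukaemia driven by MLL-AF9, the fusion of the histone methyltransferase KMT2A with MLLT3, and all 6 groups carried Cas9 and grew with 10 ng/ml of mouse interleukin-3. Each guide group, named e12.3, e12.4, e20.1 or e21.1, carried a different guide against Jmjd1c, a jumonji protein of the histone H3K9 demethylase family, and the series names its jumonji and zinc finger domains as the targets. Control cells carried a guide against Renilla, a luciferase gene absent from the mouse genome, or were labelled mock. Each group had 3 libraries of poly(A) RNA. The labels leave out which domain belongs to which guide, how mock cells were treated, whether the cells are 1 clone and whether libraries of a group came from separate cultures, so p-values measure the spread between libraries, which may be technical.

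The cytosolic ribosome joins a large and a small subunit, each of ribosomal RNA and many proteins made in near-equal numbers. Their mRNAs belong to the most abundant in growing cells, and most start with a run of pyrimidines (a TOP motif) through which mTORC1 and LARP1 govern their translation. The mitochondrial ribosome is a separate machine that makes only the few respiratory chain subunits encoded in mitochondrial DNA; all its proteins are encoded in the nucleus and imported. Acute myeloid leukaemia cells are known to depend on mitochondrial protein synthesis.

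Short stretches of the mouse genome give examples from the promoters of these genes. Those of mitochondrial and cytosolic members cover different windows and mark different motifs in picked genes, so they do not compare the promoters. The stretches come from RefSeq's promoter windows (GRCm38.p6), in which 129 of the 161 members had an entry (60 cytosolic and 69 mitochondrial). The first set shows the 100 bases before the annotated start of the 5 mitochondrial members that passed a test below; capitals mark matches, on either strand, to CCGGAAG (ETS factors), TGCGCA (the core of the NRF1 site) or GGGCGG (SP1, here read as its reverse complement CCGCCC).
Mrpl3 (chr9:105053168-105053267, plus strand, ETS): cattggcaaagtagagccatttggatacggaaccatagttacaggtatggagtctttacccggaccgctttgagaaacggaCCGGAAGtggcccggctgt
Mrps18b (chr17:35916441-35916540, minus strand, SP1): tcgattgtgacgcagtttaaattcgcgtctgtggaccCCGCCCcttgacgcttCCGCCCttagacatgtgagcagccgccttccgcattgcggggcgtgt
Mrps7 (chr11:115604040-115604139, plus strand, NRF1 core): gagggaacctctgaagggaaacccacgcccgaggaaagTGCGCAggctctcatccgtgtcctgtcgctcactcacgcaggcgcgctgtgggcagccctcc
Mrpl9 (chr3:94443236-94443335, plus strand, NRF1 core): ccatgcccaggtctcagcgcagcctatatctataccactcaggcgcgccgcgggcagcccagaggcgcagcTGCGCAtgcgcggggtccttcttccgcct
Mrpl44 (chr1:79775918-79776017, plus strand, NRF1 core): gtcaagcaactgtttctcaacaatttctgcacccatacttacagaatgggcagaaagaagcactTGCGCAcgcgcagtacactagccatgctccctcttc
The second set shows the 10 bases before and the 20 bases from the annotated start of 4 cytosolic members, as examples of the pyrimidine start, with the run in capitals.
Rps18 (chr17:33955646-33955675, minus strand): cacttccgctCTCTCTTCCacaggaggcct
Rps10 (chr17:27635225-27635254, minus strand): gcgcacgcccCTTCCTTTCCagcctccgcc
Rps6 (chr4:86857348-86857377, minus strand): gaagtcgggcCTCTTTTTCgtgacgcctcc
Rps21 (chr2:180257369-180257398, plus strand): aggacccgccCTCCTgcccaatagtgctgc

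Over windows from 250 bases before to 50 bases after the start, a C at the start base with at least 4 pyrimidines after it was found in 13 of 60 cytosolic members (21.7%), 0 of 69 mitochondrial members and 3.01% of all 27025 genes in the promoter table. CCGGAAG was present in 41.7% of cytosolic and 37.7% of mitochondrial members, against 9.93% of all genes. TGCGCA was present in 20% of cytosolic members, 30.4% of mitochondrial members and 8.79% of all genes. AAGATGG (YY1) was present in 16.7%, 18.8% and 7.28%, and GGGCGG in 63.3%, 49.3% and 38.2%, in the same order. Both sets held the 4 factor motifs more often than the table as a whole, and of the members, only cytosolic ones had the pyrimidine start. The promoter table includes genes that were not tested here, and the share among tested genes is not given. The pyrimidine start was sought only at the annotated start base, so runs that begin at another base were not counted. A match is a description of letters, not of a bound site.

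Several features of the whole series bear on these values. Jmjd1c itself averaged 64.1 ± 9.24 FPKM (SD, n = 12) with the 4 guides, 78.3 ± 12.26 FPKM (n = 3) with the Renilla guide and 74.5 ± 2.69 FPKM (n = 3) in mock cells, and limma-trend did not call it (adjusted p = 0.19 against Renilla and 0.35 against mock); a mRNA level does not show whether a guide cut its target. Estimated depth was 183.4 M reads in mock library 1, 75.3 M in e21.1 library 3, 67.2 M in e12.3 library 3 and 20.8 to 43.5 M in the others. The part of depth in the results was not tested. In a principal component analysis of the 11303 tested genes that are neither members nor pseudogene rows, e12.3 library 3 and e21.1 library 3 stood apart on the second component (-40.6 and -49.7, others 0.57 to 12.8), and e20.1 library 2 and Renilla library 1 on the third (-34.0 and -31.9, others -5.61 to 11.4). On the first component (26.7% of the variance), control libraries scored -31.5 to -15.0. There e12.3 library 3 scored -20.8, inside the control range, and e21.1 library 3 scored -3.36. The other guide libraries scored 6.59 to 19.0. Of myeloid marker lists, 6 of 8 tested monocyte and macrophage genes passed higher with the guides and 4 of 5 primary granule genes passed lower, against each control, and of 8 tested mature neutrophil genes 3 passed higher against Renilla and 4 against mock (of all genes, 7.77% and 6.84% were called higher and 3.21% and 2.16% lower). The summed level of the 10 monocyte and macrophage genes was 277 to 554 FPKM with the guides, 176 to 186 FPKM with Renilla and 162 to 165 FPKM in mock. That of the 9 mature neutrophil genes was 117 to 942 FPKM with the guides, 108 to 192 FPKM with Renilla and 94.0 to 122 FPKM in mock. Their part in the ribosomal results was not tested.

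Cytosolic members were expressed far above mitochondrial ones, and each set spanned a wide range of levels. Mean FPKM over the 18 libraries was 1.1 to 5151 in the cytosolic set (median 1656) and 9.41 to 332 in the mitochondrial set (median 49.1). Among the highest cytosolic means were those of Rplp1, a protein of the acidic stalk that recruits elongation factors (5151 FPKM), and Rpl13a, which is also known for a role in interferon-gamma silencing of translation (3775 FPKM). The lowest were those of Rpl6l (1.1 FPKM), Rps27 (34.5 FPKM) and Rpl5, a protein of the 5S ribonucleoprotein (70.7 FPKM).

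Mitochondrial levels were led by Mrpl33 (332 FPKM), Mrps21 (200.9 FPKM) and Mrpl17 (172 FPKM), and were lowest for Mrpl23 (9.41 FPKM), Mrps31 (11.1 FPKM) and Mrpl11 (11.9 FPKM). The 10 highest genes of a set held 25.6% of its summed mean level in the cytosolic set and 32.1% in the mitochondrial set. The median coefficient of variation over the 18 libraries was 16.9% for cytosolic members, with Rpl6l highest at 47.4% and Rpl7l1 lowest at 7.82%. It was 13.6% for mitochondrial members, with Mrpl19 highest at 25.2% and Mrpl1 lowest at 7.91%.

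**Figure D1:**
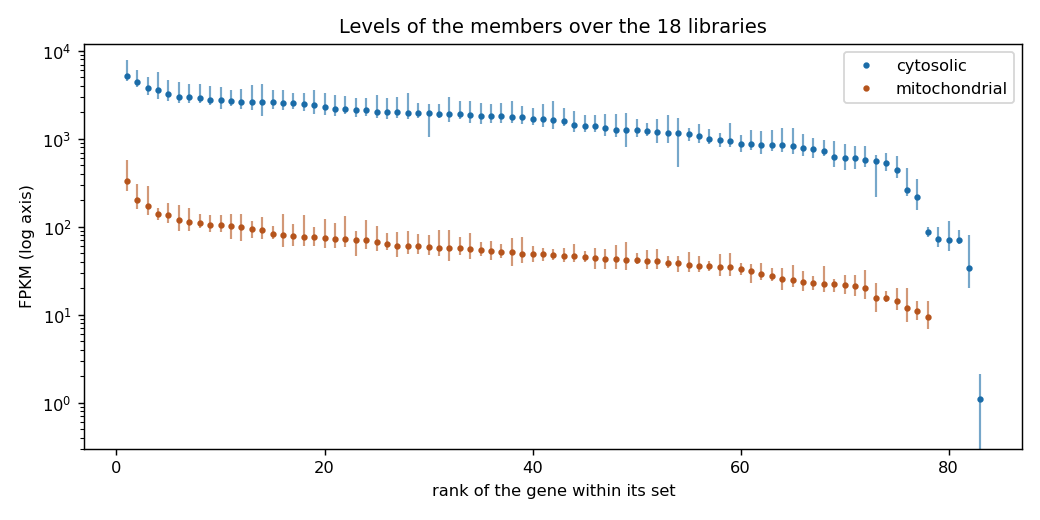
Mean FPKM of each member (points, log axis) with its lowest to highest library (lines), ranked within the cytosolic set (blue) and the mitochondrial set (orange). Cytosolic means reach 5151 FPKM and mitochondrial means 332 FPKM; the last cytosolic point is Rpl6l at 1.1 FPKM.

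No cytosolic member passed the test with the 4 guides together, against either control (limma-trend on log2(FPKM + 1), Benjamini-Hochberg adjusted p under 0.05 over 11550 genes). Against Renilla, 0 of 83 were called, where 11% of all tested genes were; at an unadjusted p under 0.05, 2 members were higher and 0 lower. Against mock, 0 of 83 were called, where 9% of all tested genes were. At an unadjusted p under 0.05, 0 were higher and 1 was lower. In simulated data with the levels and spread of the tested genes, 11350 of 11550 genes were left unchanged. Changed genes, 33 or 34 per size and direction, were drawn from outside the lowest levels. The test called 0 to 9.09% of genes changed by 0.25 (log2). It called 51.5 to 58.8% of those changed by 0.5. Fewer genes were changed there than were called in the real data, which makes the adjusted threshold stricter. These rates may therefore differ from those in the real data. The absence of calls still does not show that changes of such sizes are absent. The median log2 fold change of the set was 0.05 against Renilla (52 of 83 above 0) and 0.10 against mock (75 of 83 above 0). Over all genes tested it was -0.03 and -0.02, with 44.9% and 46.2% above 0. The median against Renilla was -0.02 without Renilla library 3, -0.01 without e20.1 library 2 and 0.14 without Renilla library 1. In bulk RNA, fewer cells of a type and less RNA per cell cannot be told apart.

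By role, the stalk proteins Rplp0, Rplp1 and Rplp2 had log2 fold changes of -0.09, 0.05 and -0.05 against Renilla and -0.00, 0.08 and 0.13 against mock. Rps6, the substrate of S6 kinase, ranged from 1704 to 2937 FPKM over the 12 guide libraries (median 1857), against 1979, 1970 and 1869 FPKM with Renilla and 1903, 1948 and 1922 FPKM in mock. The guide libraries thus surrounded the controls, and its log2 fold changes were 0.06 and 0.07. Rpl5 and Rpl11, which bind Mdm2 as part of the 5S particle, had 0.08 and -0.12 against Renilla and 0.13 and 0.05 against mock.

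Rps19 and Rps14, whose human counterparts are lost or mutated in inherited or acquired anaemias, did not pass the test. Rps19 averaged 2316 ± 458 FPKM with the guides (SD, n = 12), 1890 ± 75.8 with Renilla and 2005 ± 74.6 in mock (n = 3 each), with adjusted p of 0.29 and 0.55. Rps14 averaged 2739 ± 813 FPKM with the guides, 2466 ± 556 with Renilla and 2243 ± 64.9 in mock, with adjusted p of 0.79 and 0.62. The paralogue pair Rpl22 and Rpl22l1 had log2 fold changes of 0.04 and -0.10 against Renilla, and both had 0.07 against mock. Rpsa (also a laminin receptor), Rpl39 (lining the exit tunnel) and Rpl3 (near the peptidyl transferase centre) had -0.03, -0.00 and -0.09 against Renilla and 0.08, 0.12 and -0.12 against mock.

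Rpl31, a large-subunit protein at the exit of the tunnel and chosen here after its values were seen, was lowest in Renilla library 1. It stood at 994 to 1744 FPKM in the guide libraries, against 475, 1142 and 1055 FPKM with Renilla and 1099, 1184 and 1133 FPKM in mock. Renilla library 1 was the lowest of the 18, and the remaining controls lay within the guide range. Its log2 fold change was 0.54 against Renilla (adjusted p = 0.13) and 0.08 against mock (adjusted p = 0.87). Without Renilla library 1 the value against Renilla was 0.13 (adjusted p = 0.73).

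The cytosolic share differed between libraries of a group by more for e12.3, e20.1 and e21.1 (SD 1.78, 2.62 and 1.95 percentage points) than for e12.4 (0.42), Renilla (1.00) and mock (0.21; n = 3 each). Cytosolic members summed to 116706 to 187890 FPKM in the guide libraries, or 15.98 to 20.88% of all FPKM, against 16.81 to 18.70% with Renilla and 17.01 to 17.44% in mock. The highest shares were those of e20.1 library 2 (20.88%), e21.1 library 3 (20.48%), e12.3 library 3 (20.07%) and Renilla library 1 (18.70%), the same 4 libraries that stood apart in the genes outside the sets. The 8 tested mature neutrophil genes had a median of 1.67, 2.13, 2.59 and -0.12 (log2, minus the Renilla mean) in these libraries, in that order. With the 4 guides together, their median log2 fold change against Renilla was 1.01. Their part in the shares was not tested. In e20.1 library 2, 83 of 83 cytosolic members were above their Renilla mean. Transcripts of at least 3000 bases outside the sets had a median of -0.18 (log2, minus Renilla) in e20.1 library 2, but of -0.01, -0.04 and -0.04 in e12.3 library 3, e21.1 library 3 and Renilla library 1. Cytosolic members have a median transcript length of 637 bases and mitochondrial ones of 848 bases. With the transcript-length trend of each library removed from the values, 0 cytosolic members were called against either control, and 7 mitochondrial members against Renilla and 2 against mock were lower (8.97% and 2.56%, where 5.7% and 4.5% of all genes were).

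Most mitochondrial members had slightly lower means with the guides than with either control, and few passed the test. Against Renilla, 4 of 78 were called lower (5.13%) and 0 higher, where 3.21% of all tested genes were lower and 7.77% higher. Against mock, 1 of 78 was called lower (1.28%) and 0 higher, where 2.16% were lower and 6.84% higher. The median log2 fold change was -0.14 against Renilla, with 65 of 78 below 0, and -0.09 against mock, with 68 of 78 below 0. Of all tested genes, 44.9% and 46.2% were above 0 in these comparisons. Without Renilla library 1 the median against Renilla was -0.02 and 1 member was called; without Renilla library 2, 2 members were called, and without e12.3 library 3 or e20.1 library 2, 7 were. Without all e12.4 or all e21.1 libraries 1 was called against Renilla and 0 against mock. In both comparisons the share of the set called was below that of all genes (11% and 9% called in either direction), while most members had values below 0. All 12 guide libraries lay below all Renilla libraries in 1 member (2.98% of all genes did so, and 6.26% lay above), and below all mock libraries in 2 members and above them in 1 (3.41% and 6.52% of all genes).

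Mrpl3, a core large-subunit protein at the catalytic centre, ranged from 53.1 to 74.8 FPKM over the 12 guide libraries (median 61.7), against 103, 71.8 and 72.0 FPKM with Renilla and 70.6, 73.9 and 65.1 FPKM in mock. All 12 guide libraries lay below the Renilla mean, with overlap at the individual values. The log2 fold change against Renilla was -0.38 (SE 0.098, adjusted p = 0.0188), and against mock it was -0.16 (adjusted p = 0.37). Without Renilla library 1 the value against Renilla was -0.21 (adjusted p = 0.16).

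Mrps18b is a small-subunit protein and 1 of 3 mammalian relatives of the same bacterial ribosomal protein. It ranged from 47.1 to 75.8 FPKM with the guides (median 65.3), against 77.8, 83.2 and 90.2 FPKM with Renilla and 69.2, 82.9 and 78.0 FPKM in mock. The guide and Renilla libraries did not overlap. The log2 fold change against Renilla was -0.35 (SE 0.092, adjusted p = 0.02) and against mock -0.23 (adjusted p = 0.16). Without Renilla library 2 or 3 the adjusted p against Renilla was 0.074 or 0.11. Its relatives Mrps18a and Mrps18c had -0.13 and 0.01 against Renilla, and -0.05 and -0.03 against mock; the difference between the 3 genes was not tested.

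Mrps7, which binds the small ribosomal RNA in the head of the small subunit, ranged from 27.9 to 37.3 FPKM with the guides (median 32.8), against 49.7, 36.2 and 39.8 FPKM with Renilla and 37.6, 36.8 and 37.1 FPKM in mock. All 12 guide libraries lay below the Renilla mean, and some reached the level of Renilla library 2. The log2 fold change was -0.32 against Renilla (SE 0.085, adjusted p = 0.0215) and -0.17 against mock (adjusted p = 0.28). Without Renilla library 1 the value against Renilla was -0.20 (adjusted p = 0.19).

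Mrpl9, a large-subunit protein with a bacterial counterpart, ranged from 33.9 to 41.2 FPKM with the guides (median 36.6), against 46.1, 43.1 and 40.2 FPKM with Renilla and 41.6, 43.5 and 42.2 FPKM in mock. Every guide library lay below every mock library, and the highest guide library passed the lowest Renilla one. The log2 fold changes were -0.21 against Renilla (SE 0.062, adjusted p = 0.0395) and -0.19 against mock (adjusted p = 0.076). The call against Renilla was lost under 17 of 35 alternatives, with an adjusted p of at most 0.21, and against mock the gene passed under 8 of 35, with an adjusted p of at least 0.0056.

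Mrpl44, a protein with a ribonuclease III-like fold found in mitochondrial but not bacterial ribosomes, ranged from 31.5 to 36.2 FPKM with the guides (median 33.8), against 33.0, 38.9 and 39.6 FPKM with Renilla and 39.9, 40.0 and 41.0 FPKM in mock. The guide libraries did not overlap mock, whereas Renilla library 1 lay inside the guide range. The log2 fold change was -0.24 against mock (SE 0.062, adjusted p = 0.0195) and -0.13 against Renilla (adjusted p = 0.23). Without any 1 of the mock libraries the adjusted p against mock was 0.077 to 0.12.

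**Figure D2:**
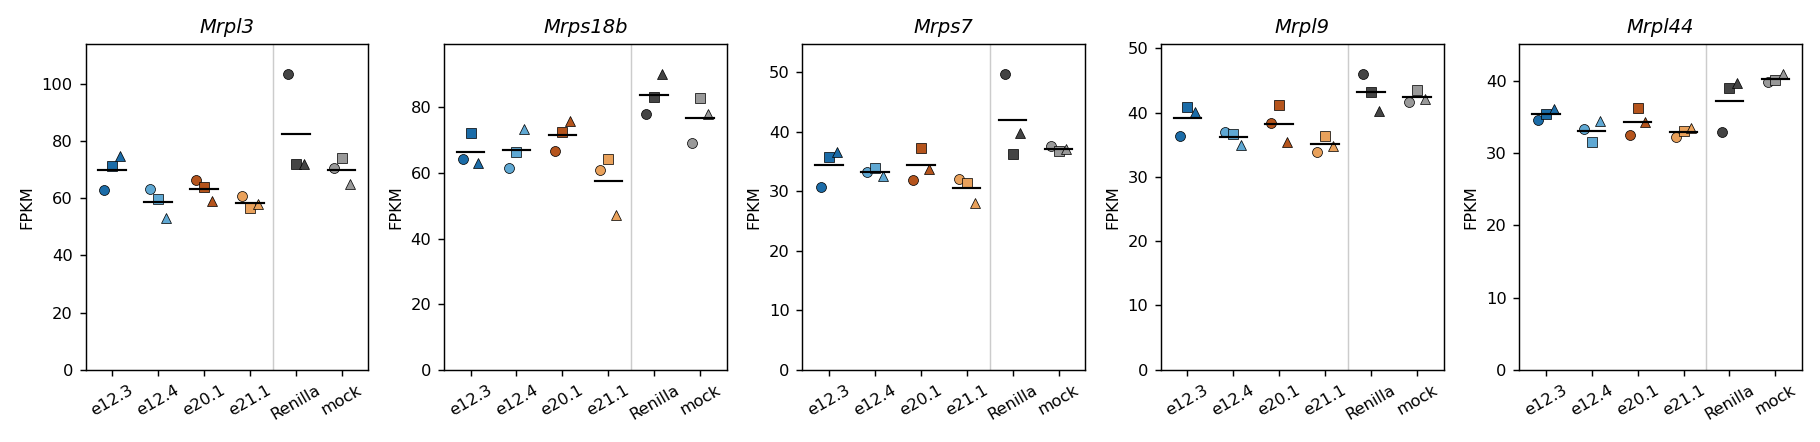
FPKM of the 5 mitochondrial members that passed a test (linear axes from 0), by group; each point is a library (circle, square and triangle for libraries 1, 2 and 3) and the line is the group mean. Renilla library 1 is the highest point for Mrpl3 (103 FPKM) and Mrps7 (49.7 FPKM) and lies within the guide libraries for Mrpl44 (33.0 FPKM).

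The other mitochondrial members named here did not pass. Mrpl12, which also contacts the mitochondrial RNA polymerase, had -0.31 against Renilla and -0.21 against mock, and Mrpl17 had -0.31 and -0.29; without Renilla library 1 the values against Renilla were -0.05 and -0.02. Mrps5 and Mrps12, small-subunit proteins with bacterial counterparts, had -0.16 and -0.12 against Renilla and -0.20 and -0.00 against mock. Mrps28 had -0.27 and -0.15. Without Renilla library 1, Mrps5, Mrps12 and Mrps28 had -0.26, 0.08 and -0.16 against Renilla. Mrpl33 and Mrps21, the most abundant members, had 0.08 and 0.04 against Renilla and 0.31 and 0.15 against mock, and without Renilla library 1 they had 0.36 and 0.31 against Renilla.

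Mrpl52, a large-subunit protein specific to mitochondrial ribosomes and chosen here after its values were seen, had values on the other side of 0 from most of its set. It ranged from 70.7 to 140 FPKM with the guides (median 79.0), against 110, 60.3 and 70.8 FPKM with Renilla and 63.2, 63.7 and 59.8 FPKM in mock. All guide libraries were above all mock libraries, while Renilla library 1 lay among the highest of the 18. The log2 fold change was 0.43 against mock (adjusted p = 0.14) and 0.11 against Renilla (adjusted p = 0.74). Median transcript lengths are 418 bases for Mrpl52, 430 for Mrps21 and 773 for Mrpl33.

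**Figure D3:**
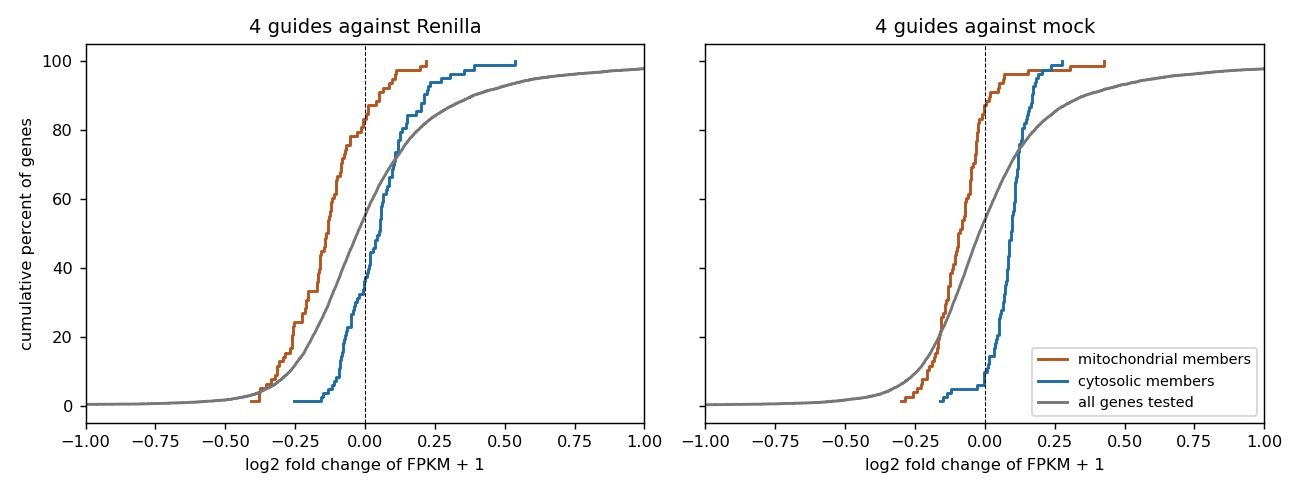
Cumulative percent of genes by log2 fold change of the 4 guides against Renilla (left) and against mock (right) for the mitochondrial members (orange), the cytosolic members (blue) and all genes tested (grey). The orange curve lies left of the blue one in both panels, with medians of -0.14 and 0.05 against Renilla and -0.09 and 0.10 against mock.

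Set levels differed between libraries of the same guide, and in every guide library the cytosolic median lay above the mitochondrial one. The set median of log2 values, minus each gene's Renilla mean, was -0.19 to 0.51 for cytosolic members over the guide libraries, against -0.10 to 0.19 with Renilla and -0.07 to -0.05 in mock. For mitochondrial members it was -0.28 to 0.16 over the guide libraries, against -0.14 to 0.24 with Renilla and -0.10 to 0.01 in mock. Both sets therefore overlapped their controls when taken singly. The cytosolic minus the mitochondrial median was 0.044 to 0.53 in the 12 guide libraries (median 0.11), against -0.05, 0.02 and 0.04 with Renilla and -0.09, 0.02 and 0.04 in mock.

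Every guide library thus lay above every control library on that scale, with the lowest guide value (e12.3 library 1, 0.044) next to the highest control value (Renilla library 3, 0.043). Measured from the mock means, the groups overlapped, with 0.048 to 0.52 in the guide libraries, at most 0.024 with Renilla and at most 0.055 in mock. As a ratio of summed FPKM they overlapped too, at 26.6 to 37.7 with the guides, 24.7 to 27.0 with Renilla and 25.3 to 27.3 in mock. With the transcript-length trend of each library removed, the lowest guide library stood at 0.05 and the highest control library at 0.056, measured from the Renilla means. No test was made of these scores, since they summarise the chosen members.

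**Figure D4:**
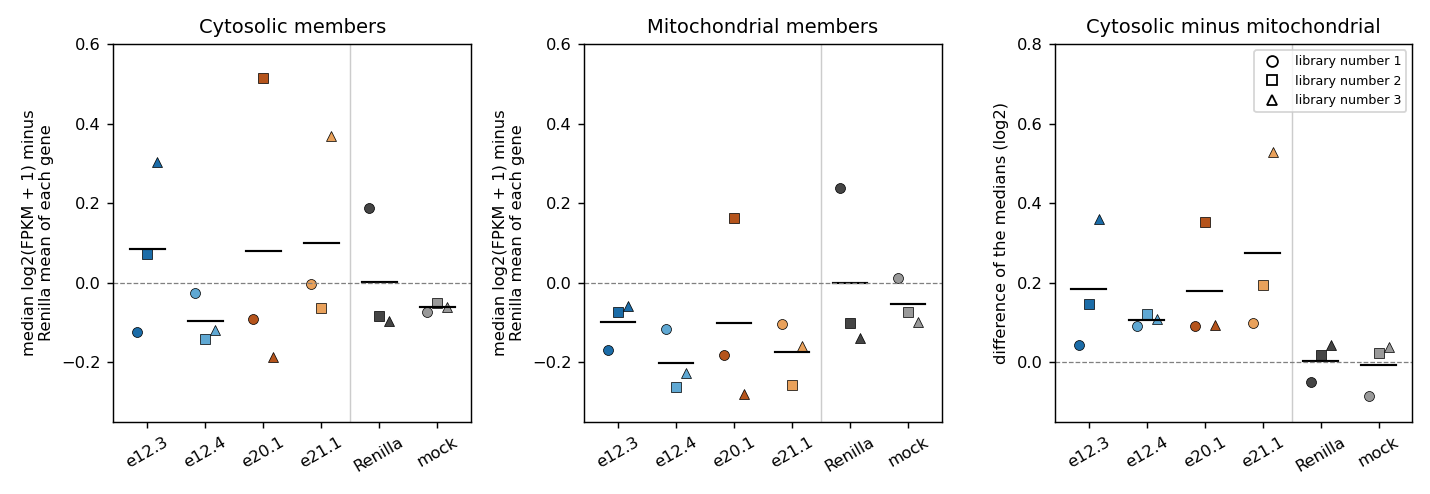
Median over the cytosolic members (left) and the mitochondrial members (middle) of log2(FPKM + 1) minus each gene's Renilla mean, and the difference of the medians (right), for each library; lines are group means. In the right panel the 12 guide libraries range from 0.044 to 0.53 and the 6 control libraries from -0.09 to 0.04.

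Guide by guide, against Renilla, cytosolic members gave 0 calls with each guide, where of all genes 3.2% were called with e12.3, 7.09% with e12.4, 5.68% with e20.1 and 9.51% with e21.1. Their medians were 0.07, -0.10, 0.08 and 0.09, so e12.4 was the guide with most members below the Renilla mean (60 of 83). At an unadjusted p under 0.05, 2 cytosolic members were higher with e21.1 and none with the remaining guides in either direction. Mitochondrial members gave 0, 1, 0 and 4 calls, all lower, where 0.173%, 1.52%, 1.06% and 2.45% of all genes were called lower and 3.03%, 5.57%, 4.61% and 7.06% higher. The medians of the set, with guides in the same order, were -0.09, -0.20, -0.10 and -0.17. The call with e12.4 was Mrpl3 (-0.47, adjusted p = 0.0311; -0.29 without Renilla library 1), and no member was called with e12.4 without e12.4 library 2, e12.4 library 3 or Renilla library 1.

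The 4 calls with e21.1 were Mrps18b, Mrps7, Mrpl3 and Mrpl9. Mrps18b stood at 61.0, 64.3 and 47.1 FPKM with e21.1, against 77.8, 83.2 and 90.2 FPKM with Renilla, a log2 fold change of -0.55 (adjusted p = 0.00673) with no overlap. The others had -0.44, -0.47 and -0.29. Without e21.1 library 3, the lowest in Mrps18b and Mrps7, 1 mitochondrial member was called with e21.1, and likewise without Renilla library 1.

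Against mock, cytosolic members gave 0 calls with each of the 4 guides, where 2.94%, 6.48%, 5.32% and 7.26% of all genes were called, and their medians were 0.13, -0.03, 0.13 and 0.15, with guides in the order above. At an unadjusted p under 0.05, 1 cytosolic member was lower with e12.4 and none was found with the others. Mitochondrial members gave 0, 1, 0 and 2 calls, all lower, where 0.121%, 1.26%, 0.909% and 1.35% of all genes were called lower and 2.82%, 5.22%, 4.41% and 5.91% higher. Their medians were -0.05, -0.16, -0.04 and -0.12. The calls were Mrpl44 with e12.4 (-0.28, adjusted p = 0.044) and Mrpl44 (-0.29, adjusted p = 0.0348) and Mrps18b (-0.42, adjusted p = 0.0392) with e21.1. The count with e12.4 was 0 in 13 of the 18 fits that left out 1 library, each e12.4 and each mock library among them, and with e21.1 it was 0 without e21.1 library 3, mock library 2 or mock library 3. The 4 guides share the same control libraries in these comparisons, so their values are given side by side and their likeness is not counted.

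Mitochondrial members whose 3 guide libraries all lay below all 3 controls were most numerous with e12.4, at 26 of 78 against Renilla (33.3%, beside 16.8% of all genes) and 32 of 78 against mock (41.0%, beside 20.7%). With e21.1 there were 9 against Renilla (11.5%, beside 11.7%) and 19 against mock (24.4%, beside 12.9%). With e20.1 there were 8 (10.3%, beside 11.4%) and 7 (8.97%, beside 14.2%), and with e12.3 there were 1 (1.28%, beside 6.67%) and 6 (7.69%, beside 7.81%). The share was above that of all genes for e12.4 against both controls and for e21.1 against mock. The set median of the 3 e12.4 libraries, minus the Renilla mean, was -0.12, -0.26 and -0.23 for mitochondrial and -0.03, -0.14 and -0.12 for cytosolic members.

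No member passed the test between the control groups or between the pairs of guides. Between Renilla and mock, 0 of 161 members and 0% of all tested genes were called by limma-trend, and at an unadjusted p under 0.05 there were 0 members and 127 genes. Set medians were 0.05 in both sets. Between e20.1 and e21.1 together and e12.3 and e12.4 together, 0 members and 0% of all genes were called, with 0 members and 179 genes at an unadjusted p under 0.05. Set medians were 0.09 for cytosolic and 0.02 for mitochondrial members.

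Taking the libraries that stood apart out of the fit changed the counts of mitochondrial members. The libraries left out were e12.3 library 3, e21.1 library 3, e20.1 library 2 and Renilla library 1. They were chosen after the data were seen, from genes outside the sets, but the choice was not independent of member values. The mitochondrial median, minus the mock mean, was 0.22 in e20.1 library 2 and 0.02 in e12.3 library 3. It was negative in every other guide library, e21.1 library 3 among them (-0.10). The set median against mock was -0.09 with all libraries and -0.12 without these 4. Without e12.3 library 3 and e21.1 library 3 alone it stayed at -0.09. Of all genes, 9% were called against mock with all libraries and 25.9% without these 4. What moved the counts was not tested. In this fit, 21 of 78 mitochondrial members were lower and 2 higher with the guides against mock (26.9% and 2.56%, where 12.1% and 13.8% of all genes were). The strongest falls were those of Mrpl38 (-0.36), Mrpl51 (-0.34) and Mrpl17 (-0.33), and Mrpl33 and Mrpl52 were the members that were higher (0.26 and 0.39). Against Renilla, 7 were lower and 3 higher (8.97% and 3.85%, where 7.04% and 12.1% of all genes were), and the higher ones were Mrps21, Mrpl33 and Mrpl52. Cytosolic members gave 0 calls against Renilla and 2 against mock, the large-subunit protein Rpl3 (-0.18) and the paralogue Rpl7l1 (-0.19), both lower.

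With Renilla and mock pooled as 1 control group, 11 of 78 mitochondrial members were called lower (14.1%, where 8.01% of all genes were lower), and 0 of 83 cytosolic members were called. Of 12 guide libraries against 6 control libraries, no member of either set was free of overlap in either direction, where 4.92% of all genes were higher and 1.59% lower without overlap.

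Pseudogene copies limit what can be said of single cytosolic genes. Processed copies of ribosomal protein mRNAs are abundant in mammalian genomes, and near-identical sequence lets the authors' quantification move reads between a gene and its copy. There were 259 rows named as pseudogenes of cytosolic members and 4 of mitochondrial ones, and 59 cytosolic and 3 mitochondrial members had at least 1. In 9 cytosolic members and 1 mitochondrial member the pseudogene rows summed to more than the gene. Rps13 averaged 71.0 FPKM beside 1834 FPKM in its pseudogene rows, Rps23 averaged 852 FPKM beside 3695 FPKM, and Mrpl23 averaged 9.41 FPKM beside 101 FPKM. Levels of such members are therefore uncertain, as are those of Rps27, beside its near-identical retrogene Rps27rt (1935 to 4263 FPKM), and of Rpl37, beside Rpl37rt (903 to 1504 FPKM).

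Renilla library 1 also differed from the rest in such copies. Rpl30-ps9 was listed at 1326 FPKM there and at 0 to 31.0 FPKM in the other 17 libraries, while Rpl30 itself stood at 1146 FPKM, within the 905 to 1698 FPKM of the others. Rpl31-ps8 stood at 864 FPKM there, against 1500 to 2488 FPKM in the others, and was the lowest there, as Rpl31 was. Rpl10 and Rpl17 were lowest there too, at 221 and 810 FPKM. Adding each pseudogene row to its gene left the calls at 0 cytosolic members against either control, 4 mitochondrial members against Renilla and 1 against mock. Taken alone, 84 cytosolic pseudogene rows were tested with the 4 guides together. Of these, 0 were called against Renilla and 1 was called higher against mock, where 6.84% of all genes were.

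**Figure D5:**
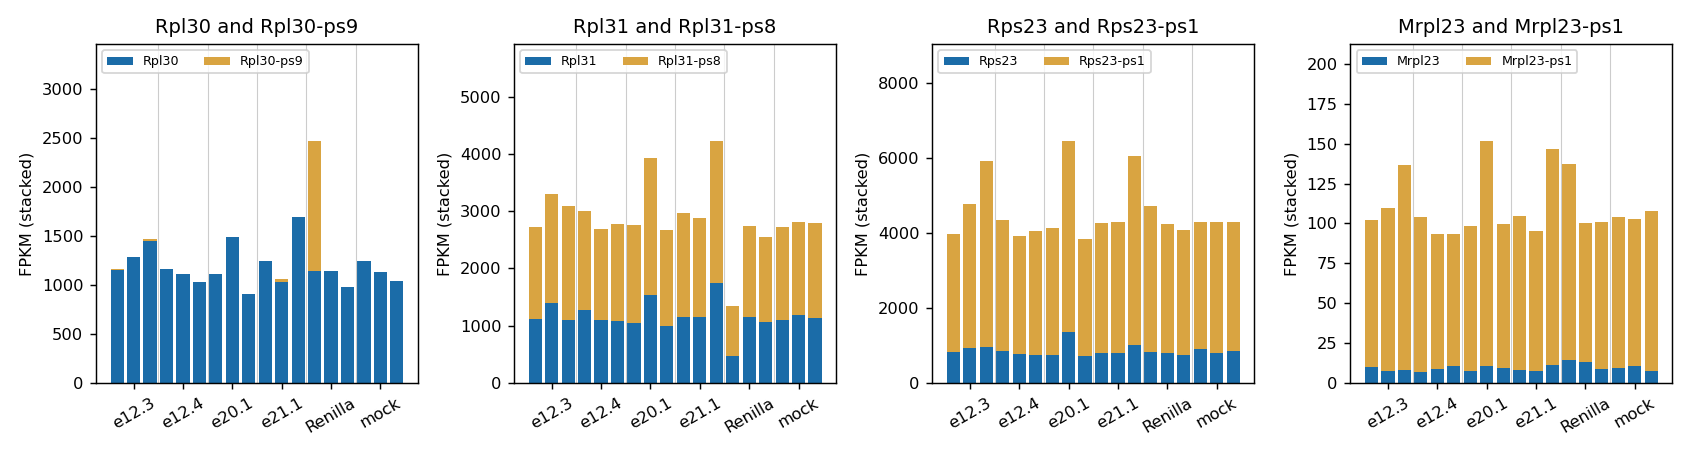
FPKM of 4 members (blue) with the pseudogene row named in each panel stacked on top (yellow), for the 3 libraries of each group in order. Rpl30-ps9 reaches 1326 FPKM in Renilla library 1, Rpl31 and Rpl31-ps8 are lowest in the same library, and for Rps23 and Mrpl23 the pseudogene row holds most of the sum in every library.

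Genes that work with these ribosomes but fall outside the name pattern are given beside the shares of all genes that were called lower, 3.21% against Renilla and 2.16% against mock. Among 5 further mitoribosome proteins, Ptcd3, a small-subunit protein, was called lower against both controls, at 49.0 ± 3.29 FPKM with the guides (SD, n = 12), 60.3 ± 5.41 FPKM with Renilla and 60.8 ± 3.05 FPKM in mock (n = 3 each), with log2 fold changes of -0.29 (adjusted p = 0.0099) and -0.31 (adjusted p = 0.0074) by limma-trend. Of 15 mitochondrial translation factors, 1 was called lower against Renilla, the mRNA-binding protein Lrpprc (-0.43), and 0 against mock. Of 24 assembly factors, 2 were called lower against Renilla, Fastkd2 (-0.59) and the GTPase Mtg1 (-0.27), and 0 against mock. Lrpprc, Fastkd2 and Mtg1 were higher in Renilla than in mock, by 0.10, 0.31 and 0.13 (log2), with no call between these controls. Of 9 tested regulators of nuclear genes for mitochondrial proteins, such as Nrf1, Gabpa and Yy1, 0 were called against either control.

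Beside the same shares, 4 of 36 cytosolic translation factors were called lower and 0 higher against Renilla, Eif3a (-0.31), Eif3c (-0.38), Eif5 (-0.41) and the poly(A)-binding protein Pabpc1 (-0.28), and 1 was called lower against mock, Eif3l (-0.20). Medians of the list were -0.15 and -0.10. Of 16 regulators of TOP mRNAs and mTORC1, 2 were called lower against Renilla, Larp1 (-0.35), which represses TOP mRNAs, and Pdcd4 (-0.31), and 1 against mock, Rptor (-0.31). Of 9 tested non-ribosomal TOP transcripts, Hnrnpa1 (-0.29) and Ncl (-0.39) were called lower against Renilla and 0 against mock. Of 10 chaperones of ribosomal proteins, Bccip (-0.36) was called lower against Renilla and 0 against mock, and the cytosolic ribosome genes Fau, Rack1 and Rpl36al, which lie outside the pattern, gave 0 calls against either. The genes of this paragraph called only against Renilla were all higher in Renilla than in mock, from 0.08 (Pabpc1) to 0.21 (Ncl) and 0.29 (Eif5). In Renilla library 1 the list medians, minus the Renilla mean, were 0.14 (translation factors), -0.05 (regulators), 0.18 (TOP transcripts) and 0.33 (chaperones). The part of that library in these calls was not tested.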

How the data were processed

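The deposited values are FPKM, which the authors computed for 23899 genes in 18 libraries, so tests on counts were not used here. Per the submitters' processing notes, bcl2fastq 2.22.0.422, Salmon 0.13.0, R 3.5.3, DESeq2 1.22.1 and mm10 were used, with no settings given. Per the labels' protocols, poly(A) RNA was made into directional libraries. The 15 separate tables, of the guide and Renilla libraries, hold the same values row by row as the series table within 3.32e-06 FPKM. At most 25 gene names per separate table differed from those of the series table. The series table was used, and its mock columns were not checked in this way.

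Values were taken as log2(FPKM + 1), a scale that understates changes of low genes. For the 11550 genes whose mean reached 1 FPKM, limma-trend was run (version 3.58.1, in R 4.3.3) as 1 model of 6 group means, each guide weighted equally, with Benjamini-Hochberg adjustment over all of them and an adjusted p under 0.05 as the call. The members, lists, tests and alternatives were chosen with earlier results of these data known. For each set the text names called genes on 1 side of the control mean in all guide libraries (up to 6 per direction), the 3 highest and 3 lowest levels and genes of known roles; exceptions are marked, and a few genes are not reported here.

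Depth was estimated from steps of FPKM times transcript length in 1473 single-transcript genes (88.1 to 93.0% of low values within 0.1 of whole reads, 20% under an even spread); 81 of 83 cytosolic and 36 of 78 mitochondrial members had at least 1000 estimated reads in every library. The test was tried on simulated data first. Positions are GENCODE vM21 (GRCm38) and promoters RefSeq GRCm38.p6. Alternatives were another pseudocount, filters, model, replicate block, scaling, control group, pseudogene rows, and libraries or guides left out.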

Additional observations from a re-analysis of the deposited data

How the results depend on the processing

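Of 35 alternatives, 18 left out 1 library each. Results not listed here stayed within 1.5 times their count, or within the spread of the guide libraries for a median; no called gene turned its direction under any alternative. The cause of each shift was not tested.

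Counts of called mitochondrial members with the 4 guides against Renilla were 4 as reported, 8 with the replicate block, 1 without guide e12.4, 1 without guide e21.1, 9 without e12.3 library 3 and e21.1 library 3, 11 with Renilla and mock together, and 7 after rescaling without ribosomal protein rows. Against mock they were 1 as reported, and 2, 0, 0, 3, 11 and 2 under the same alternatives, and 2 with upper-quartile scaling. Over all genes, the share called lower against Renilla moved too, from 3.21% as reported to 5.81%, 1.62%, 2.55%, 7.07%, 8.01% and 3.58% under these alternatives in order, and against mock from 2.16% to 4.18%, 0.97%, 1.76%, 6.31%, 8.01% and 2.55%, with 2.42% under upper-quartile scaling. Mrpl9 passed against mock with the replicate block (adjusted p = 0.04). With e12.4 against Renilla the reported 1 became 0 with no filter, 5 with the replicate block, 5 without the 2 libraries named above, 5 with both controls together and 4 after rescaling. With e12.4 against mock the reported 1 became 15 with only the groups of the comparison, 4 without the 2 libraries, 5 with both controls together, 0 with upper-quartile scaling and 0 after rescaling. With e21.1 the reported 4 against Renilla and 2 against mock both became 0 with only the groups of the comparison; without the 2 libraries it was 2 against Renilla, and with both controls together 5 against mock. With e12.3 and e20.1 the reported 0 against Renilla became 1 each, and with e20.1 against mock 1, without the 2 libraries. The reported 0 cytosolic members with e12.4 against mock became 1 with only the groups of the comparison.

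Alternatives chosen after seeing the data moved the counts further. Without the 4 libraries that stand apart, mitochondrial counts with the 4 guides were 10 against Renilla and 23 against mock; they were 1, 8 and 2 for e12.3, e12.4 and e20.1 against Renilla, and against mock 4 for e12.3, 21 for e12.4, 9 for e20.1 and 8 for e21.1. Cytosolic counts there were 2 against mock, for the 4 guides and for e12.4. Without e20.1 library 2 and Renilla library 1, mitochondrial counts were 2 against Renilla and 5 against mock with the 4 guides, and 6, 1 and 6 for e12.4, e20.1 and e21.1 against mock. With the transcript-length trend removed they were 7 and 2 with the 4 guides, 5 for e12.4 against Renilla and 4 for e21.1 against mock.

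With 1 library left out, mitochondrial counts ranged from 1 to 7 (4 guides against Renilla), 0 to 2 (4 guides against mock), 0 to 2 and 0 to 1 (e12.4 against Renilla and mock), 0 to 1 (e20.1 against each) and 1 to 5 and 0 to 3 (e21.1 against Renilla and mock). Cytosolic counts were 0 throughout those fits. Set medians ranged from -0.02 to 0.14 and 0.04 to 0.13 for cytosolic members, and from -0.20 to -0.02 and -0.12 to -0.06 for mitochondrial members, against Renilla and mock.

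Replicate numbers are not stated to pair the libraries. Of 45 same-numbered pairs, 26 correlated above 0.1 in their deviations from the group means (-0.25 to 0.76), and 17 of 18 libraries correlated best with their own number, a hint from the data and not from the design. The replicate block left cytosolic counts at 0.

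Members with few estimated reads, such as Rpl6l, and members with pseudogene copies are the least certain.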
